A study of Mus musculus with 29 samples.

Results

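A total of 9 subunits of mitochondrial enzymes were followed in mouse liver and hippocampus. These enzymes make or use succinate, or make the succinyl-CoA from which it is released. The subunits were found by gene symbol in the deposited expression table, which gave 9 members of 24346 genes. They are the 4 subunits of succinate dehydrogenase (Sdha, Sdhb, Sdhc and Sdhd), the 3 subunits of succinyl-CoA ligase (Suclg1, Suclg2 and Sucla2), and 2 subunits of the 2-oxoglutarate dehydrogenase complex (Ogdh and Dlst). The study's title places succinate at the centre of how intermittent fasting acts in diet-induced obesity, so the members were compared across its regimens.

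All mice were male C57BL/6J and had eaten high-fat diet for 10 weeks, controls included. For the next 4 weeks a mouse had 1 of 4 regimens. HFD mice kept the high-fat diet with free access, and HFD-IF mice had it but were fasted on alternate days. CC mice had control chow with free access, and CC-IF mice had chow with intermittent fasting. No group without prior high-fat feeding was analysed here, and ages were not given in the sources used here. The liver libraries numbered 4 for HFD, 2 for HFD-IF, 4 for CC and 4 for CC-IF, and the hippocampal libraries 4, 4, 4 and 3 in that order. That is 29 libraries of the 32 samples in the series design. Values are FPKM, which divides fragments by transcript length and library depth, so levels of different genes are set side by side per length.

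The 2-oxoglutarate dehydrogenase complex turns 2-oxoglutarate into succinyl-CoA in the citric acid cycle. Ogdh is its E1 component, which decarboxylates the substrate, and Dlst is its E2 component, which passes the succinyl group to coenzyme A. Succinyl-CoA ligase then releases succinate and stores the energy in a nucleotide triphosphate. Suclg1 is its alpha subunit and pairs with 1 of 2 beta subunits: Suclg2 makes the enzyme form GTP, and Sucla2 makes it form ATP. Succinate dehydrogenase, also complex II of the respiratory chain, oxidises succinate to fumarate and passes the electrons to ubiquinone. Sdha holds the flavin and the succinate site, Sdhb the iron-sulfur clusters, and Sdhc and Sdhd anchor the complex in the inner membrane and bind ubiquinone. Succinate dehydrogenase holds each of its subunits once and the ligase pairs 1 alpha with 1 beta subunit, so ratios of subunits are given below.

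On the gene models of GENCODE M21 (build GRCm38), all 9 are protein-coding genes and none of them share a locus. The succinate dehydrogenase genes lie at chr13:74322254-74350280 (Sdha, minus strand), chr4:140961203-140979193 (Sdhb, plus), chr1:171127165-171150603 (Sdhc, minus) and chr9:50596357-50603812 (Sdhd, minus). The ligase genes lie at chr6:73248382-73276911 (Suclg1, plus), chr6:95473009-95718800 (Suclg2, minus) and chr14:73525319-73596142 (Sucla2, plus). Ogdh lies at chr11:6291633-6356642 (plus) and Dlst at chr12:85110833-85134845 (plus).

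Estimated depths were 9.87 to 16.8 M (mega) fragments in liver and 12.3 to 38.6 M in hippocampus. Hepatocyte markers were present in every liver library, and all 9 neuronal markers were above 1 FPKM on average in each hippocampal group. Albumin (Alb), however, was listed at exactly 0 in 1 of 4 HFD, 0 of 2 HFD-IF, 3 of 4 CC and 4 of 4 CC-IF liver libraries, and at 29210 to 43970 FPKM in the others. The other 7 hepatocyte markers summed to 21934 to 27345 FPKM in every liver library except HFD-IF library 1, at 16764. That library also stood apart in its macrophage markers, which summed to 322.5 FPKM against 60.31 to 157.4 in the other liver libraries, and in its matrix markers, at 487.9 against 122.4 to 222.9. Member changes that use it were also fitted without it. Libraries are numbered from 0, as in their column names.

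All 9 members were higher in liver than in hippocampus, and the ligase beta subunit Suclg2 differed most. Suclg2 had a mean of 102 ± 13.8 FPKM in liver (SD, n = 14) and 2.82 ± 0.427 FPKM in hippocampus (SD, n = 15), a 36.0-fold difference of means. Its lowest liver library, at 76.9 FPKM, was far above its highest hippocampal library, at 3.49 FPKM. Sucla2, the other beta subunit, averaged 66.5 ± 6.34 FPKM in liver and 34.0 ± 4.22 FPKM in hippocampus, 1.96-fold. The shared alpha subunit Suclg1 averaged 208 ± 32.3 and 47.8 ± 2.26 FPKM, 4.35-fold. In a limma model over both tissues all 9 members passed as higher in liver, by 0.91 (Ogdh) to 4.74 (Suclg2) on the log2(FPKM + 1) scale, with adjusted p of at most 4.45e-14 over 9939 genes. In the same model 49.6% of all genes tested passed as higher in liver and 88.9% passed in either direction. In tissue RNA, fewer cells of a type and less RNA per cell cannot be told apart.

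**Figure D1:**
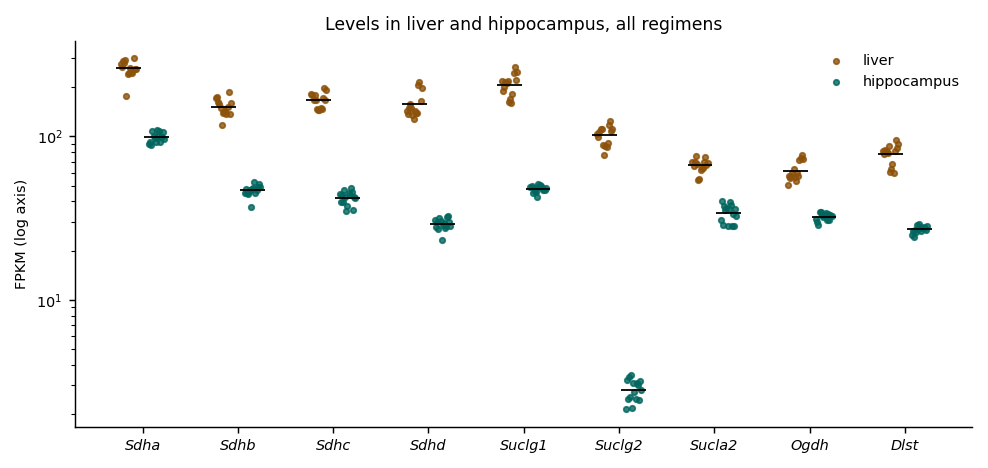
FPKM on a log axis for the 9 members in liver (14 libraries, brown) and hippocampus (15 libraries, green), with 1 point per library and a black line at the mean. The tissues do not overlap for any member, and Suclg2 falls from 102 FPKM in liver to 2.82 FPKM in hippocampus while Sucla2 falls from 66.5 to 34.0 FPKM.

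The beta subunits therefore stood in opposite order in the 2 tissues. Suclg2 made up 60.3% ± 1.82 (SD, n = 14) of the summed beta FPKM in liver, with a range of 57.3% to 62.8%. In hippocampus it made up 7.69% ± 0.991 (SD, n = 15), with a range of 6.12% to 9.92%. The Suclg2/Sucla2 ratio was 18.4 times higher in liver, with p = 1e-05 in a permutation test, two-sided, the smallest that 100000 resamples can give. The alpha subunit, by contrast, kept a like ratio to the beta subunits summed: Suclg1/(Suclg2+Sucla2) was 1.24 ± 0.123 in liver and 1.31 ± 0.147 in hippocampus (adjusted p = 0.130 over 6 ratios, permutation test). A p that misses the threshold does not show that the ratios are equal. Each hippocampal Suclg2 value rests on an estimated 84.9 to 366 fragments, against 3220 to 4924 in liver, so hippocampal Suclg2 is the least precise value here.

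The subunits of succinate dehydrogenase were also less even in hippocampus. The most abundant subunit exceeded the least abundant by 1.8 ± 0.152 times in liver (SD, n = 14) and by 3.39 ± 0.361 times in hippocampus (SD, n = 15), and the ranges, 1.52 to 1.97 and 2.91 to 3.97, did not overlap. Sdha led in hippocampus at 98.7 ± 6.86 FPKM, with Sdhb at 46.9 ± 3.58, Sdhc at 42.2 ± 4.05 and the membrane anchor Sdhd at 29.3 ± 2.32 FPKM. In liver the same 4 subunits averaged 261 ± 30.7, 152 ± 18.2, 167 ± 18.0 and 158 ± 28.6 FPKM. Relative to Sdha, the liver ratio exceeded the hippocampal ratio 1.23-fold for Sdhb, 1.503-fold for Sdhc and 2.02-fold for Sdhd. Each had adjusted p = 1e-05 by permutation test. The tissue ranges overlapped for Sdhb/Sdha but not for Sdhc/Sdha or Sdhd/Sdha. Dlst/Ogdh was 1.27 ± 0.168 in liver and 0.838 ± 0.0460 in hippocampus, 1.51-fold, with the same p and no overlap. These ratios come from FPKM, which depends on the transcript length used for each gene, so a ratio is compared between tissues and not read as a ratio of proteins.

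The order of levels in the HFD livers was Sdha, Suclg1, Sdhc, Sdhb, Sdhd, Suclg2, Dlst, Sucla2 and Ogdh. Of these neighbours, Sdhc and Sdhb overlapped, as did Sdhb and Sdhd, and the others did not. In the CC-IF livers Sdhd moved above Sdhc and Sdhb, and Ogdh above Sucla2, but each of these neighbours overlapped in range. The HFD-IF livers also had Sdhd above Sdhb and Ogdh above Sucla2, again with overlapping ranges. In hippocampus Sdha came first and Suclg2 last in mean over all libraries, with Suclg1, Sdhb, Sdhc, Sucla2, Ogdh, Sdhd and Dlst between them.

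Because the 2 beta subunits parted most between tissues while sharing the alpha subunit, promoter windows of the ligase genes are shown. Each holds the 250 bases before the RefSeq start (build GRCm38.p6). The window of Sdhd is added, the succinate dehydrogenase subunit that differed most between tissues and between the CC and CC-IF livers. Capitals mark the letters GGGCGG (a GC box) or CCGGAAG (an ETS-type site, as bound by GABPA), on either strand. The sequences run 5′ to 3′ on the strand of the gene.

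Suclg2, chr6:95718847-95719096, minus strand: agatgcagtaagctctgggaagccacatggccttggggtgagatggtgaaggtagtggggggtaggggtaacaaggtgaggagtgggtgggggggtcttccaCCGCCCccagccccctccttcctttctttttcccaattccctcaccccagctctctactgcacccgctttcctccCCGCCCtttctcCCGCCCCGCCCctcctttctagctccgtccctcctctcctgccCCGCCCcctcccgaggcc
Sucla2, chr14:73552536-73552785, plus strand: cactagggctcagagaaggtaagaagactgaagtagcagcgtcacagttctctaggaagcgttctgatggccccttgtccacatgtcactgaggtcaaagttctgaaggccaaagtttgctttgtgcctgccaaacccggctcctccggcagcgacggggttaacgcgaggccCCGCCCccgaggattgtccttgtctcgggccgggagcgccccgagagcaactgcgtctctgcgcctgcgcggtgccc
Suclg1, chr6:73248255-73248504, plus strand: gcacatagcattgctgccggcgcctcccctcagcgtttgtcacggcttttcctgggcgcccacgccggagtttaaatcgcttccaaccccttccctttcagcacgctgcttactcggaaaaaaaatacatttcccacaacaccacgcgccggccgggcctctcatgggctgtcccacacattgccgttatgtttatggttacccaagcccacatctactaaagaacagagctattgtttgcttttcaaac
Sdhd, chr9:50603850-50604099, minus strand: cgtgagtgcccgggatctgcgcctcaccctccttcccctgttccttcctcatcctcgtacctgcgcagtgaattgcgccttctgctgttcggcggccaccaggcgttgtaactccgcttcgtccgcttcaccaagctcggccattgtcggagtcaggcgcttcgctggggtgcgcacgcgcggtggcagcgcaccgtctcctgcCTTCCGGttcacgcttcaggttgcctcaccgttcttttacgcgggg

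Suclg2 and Sucla2 both held GC boxes within these windows, and Suclg1 held none. The GC content was 64.4% for Suclg2, 61.2% for Sucla2, 53.2% for Suclg1 and 64.4% for Sdhd, against a median of 52.4% over all 32851 promoters. The number of CG dinucleotides was 8 for Suclg2, 18 for Sucla2, 15 for Suclg1 and 27 for Sdhd, against a median of 6. RefSeq promoters were found for 8 of the 9 members, with 13 starts, and Sdhc had no entry. The Sucla2 and Suclg1 starts lie inside the gene spans given above and not at their first bases. The Sucla2 window lies wholly inside its gene model, and the Suclg1 window runs across the first base of its own. Neither window is thus the one before the start of that gene model. GGGCGG was found at 1 or more starts of 5 members, and at 6 of the 13 starts, where 32.7% of all promoters hold it. CCGGAAG was found at 1 of the 13 starts, that of Sdhd, and in 6.91% of all promoters. Ogdh alone has 6 of the 13 starts, some of which overlap, so counts of members are not on the scale of the shares of promoters. A palindromic NRF1 site (held by 0.782% of all promoters) and AAGGTCA (an ERR site, held by 4.08%) were found for 0 members. None of these motifs contains another. A match is a description of letters and not of binding.

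CC against HFD asks what the diet switch did where no mouse was fasted. Dlst, the E2 component of the 2-oxoglutarate complex, fell on chow in liver, and it was the 1 member of 9 that passed. Over all liver genes 2.3% passed in either direction. Dlst had 81.0, 78.2, 82.8 and 80.5 FPKM in the HFD livers and 60.8, 63.0, 67.6 and 60.0 FPKM in the CC livers. The groups did not overlap, and every CC library was below every HFD library. The change was -0.36 ± 0.07 (SE) on the log2 scale, with limma adjusted p = 0.0212. The call was lost, at adjusted p of 0.0565 to 0.0707, when any 1 of HFD libraries 0, 2 or 3 or CC libraries 0 or 1 was left out. It was not lost when the others were left out.

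The other members moved less or with more spread. Suclg1 averaged 206 ± 12.6 FPKM on HFD and 169 ± 9.46 on CC (SD, n = 4 each), a change of -0.29 ± 0.08 with limma adjusted p = 0.0697. Sdhc averaged 177 ± 6.75 and 147 ± 1.85 FPKM, a change of -0.26 ± 0.07 with limma adjusted p = 0.0813. Suclg2 averaged 105 ± 4.97 and 85.4 ± 6.03 FPKM, a change of -0.30 ± 0.09 with limma adjusted p = 0.0918. Sdhb, Sucla2, Sdha and Sdhd had changes of -0.24, -0.19, -0.17 and -0.10, and Ogdh of 0.04, with limma adjusted p between 0.212 and 0.780. Thus 8 of 9 changes were negative, with a median of -0.24 against -0.016 over all genes tested. Related gene lists, given below, had medians of -0.36 to 0.0048 in the same comparison. In 7 of 9 members, all but Sdhd and Ogdh, every CC library was below every HFD library, where 14.1% of all liver genes had groups that did not overlap. The adipocyte markers in these livers moved with the comparison: their 5 genes summed to 6.21 to 84.0 FPKM on HFD and 0.513 to 1.97 on CC. On HFD 3 of these 5 genes were at 0 in every library, and 2 averaged at least 1 FPKM. Adipoq and Lep were listed at 0 in all liver libraries. Whether the sum marks adipocytes, and the part of such cells in the member results, was not tested.

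Chow with fasting against chow without it asks what fasting did in mice switched to chow. In liver 6 of 9 members rose and none fell: Dlst and Ogdh of the 2-oxoglutarate complex, Suclg1 and Suclg2 of the ligase, and the membrane anchors Sdhc and Sdhd of succinate dehydrogenase. Over all liver genes 24% passed in either direction and 14.2% passed as higher. The 3 members that did not pass were Sucla2, Sdhb and the catalytic subunit Sdha.

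Suclg1, the shared ligase subunit, had 162, 169, 161 and 182 FPKM in the CC livers and 243, 266, 222 and 248 FPKM in the CC-IF livers. The groups did not overlap. It rose by 0.53 ± 0.08 on the log2 scale, 1.45-fold, with limma adjusted p = 0.000448. Sdhd had 127, 143, 140 and 138 FPKM on CC and 208, 216, 165 and 197 FPKM on CC-IF. The lowest CC-IF library, library 2, was still above all CC libraries. Sdhd rose by 0.51 ± 0.09, with limma adjusted p = 0.00163. Dlst had 82.0, 94.8, 85.4 and 90.4 FPKM on CC-IF, all above the CC values given earlier. It rose by 0.48 ± 0.07, with limma adjusted p = 0.000415.

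Suclg2 had 76.9, 87.2, 86.5 and 91.0 FPKM on CC and 118, 125, 107 and 111 FPKM on CC-IF. The groups were apart, and the rise was 0.43 ± 0.09 with limma adjusted p = 0.00382. Ogdh had 56.3, 53.3, 59.4 and 57.6 FPKM on CC and 71.8, 73.9, 77.5 and 73.0 FPKM on CC-IF. It had the tightest CC-IF values of the 9 members, with an SD of 3.34% of the mean, and it rose by 0.38 ± 0.06 with limma adjusted p = 0.00117. Sdhc had 145, 146, 149 and 147 FPKM on CC and 172, 198, 168 and 192 FPKM on CC-IF, again without overlap. It rose by 0.31 ± 0.07, with limma adjusted p = 0.00931.

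Sucla2 had 55.1, 62.1, 64.5 and 64.5 FPKM on CC and 69.7, 75.0, 67.3 and 69.2 FPKM on CC-IF. Its groups did not overlap, which made 7 of 9 members apart in this comparison (28.8% of all liver genes), but its change of 0.19 ± 0.08 had limma adjusted p = 0.119. Sdhb had 140, 142, 143 and 137 FPKM on CC and 151, 186, 136 and 160 FPKM on CC-IF. The groups overlapped through CC-IF library 2, and the change was 0.16 ± 0.10 with limma adjusted p = 0.254. Sdha had 240.3, 246, 262 and 249.3 FPKM on CC and 244, 301, 258 and 259.5 FPKM on CC-IF. CC-IF library 1 was above the CC range and the others within it, and the change was 0.09 ± 0.12 with limma adjusted p = 0.663 and an interval of -0.18 to 0.36.

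Across the 4 regimens together 6 of 9 members differed in limma (Dlst, Ogdh, Suclg1, Sdhd, Suclg2 and Sdhc), where 24.9% of all liver genes did. For CC-IF against CC the median change of the 9 members was 0.38 against 0.022 over all genes tested. The 6 calls were made in each fit that left out 1 liver library. They were also made without CC library 1, the single CC library with albumin above 0, so that every CC and CC-IF library compared listed albumin at 0. Adipocyte markers summed to 0.513 to 1.97 FPKM on CC and 2.63 to 6.90 on CC-IF, with Adipoq and Lep at 0. Of these 5 genes 1 averaged at least 1 FPKM on CC-IF, and 0 did on CC. Macrophage markers summed to 85.6 to 157.4 FPKM on CC and 60.31 to 95.96 FPKM on CC-IF. The 6 liver endothelial markers summed to 111.5 to 129.3 FPKM on CC and 87.3 to 108.7 on CC-IF. The 4 cholangiocyte markers summed to 8.73 to 14.04 and 6.21 to 8.54 FPKM, and both lists were lower on CC-IF without overlap. The 5 markers chosen for brain endothelium went the other way, at 17.3 to 27.0 FPKM on CC and 30.4 to 64.9 on CC-IF. Matrix markers summed to 142.5 to 179.8 and 168.8 to 222.9 FPKM, which overlapped. The part of these cells in the result was not tested.

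**Figure D2:**
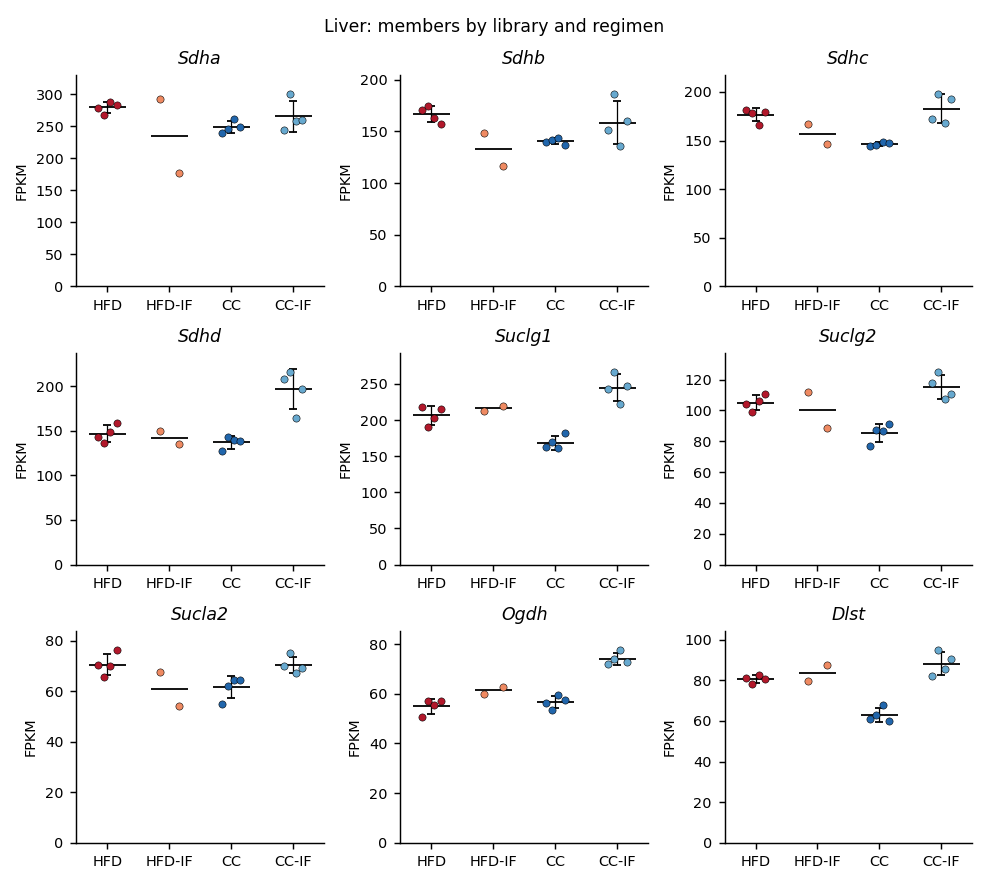
Liver FPKM of each member by regimen, with 1 point per library, a line at the mean and bars of 1 SD where a group has more than 2 libraries. Dlst falls from 80.6 FPKM on HFD to 62.9 on CC and is 88.2 on CC-IF, and in the HFD-IF group the lower Sdha point, 178 FPKM, is library 1.

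Fasted chow mice were also set against mice kept on high-fat diet, a comparison that shares its CC-IF libraries with the one above and its HFD libraries with the diet comparison. Ogdh, Sdhd and Suclg1 rose, 3 of 9 members, where 23.7% of all liver genes passed in either direction. Ogdh had 50.7, 57.0, 55.4 and 57.0 FPKM in the HFD livers, all below the CC-IF values, and rose by 0.42 ± 0.06 with limma adjusted p = 0.000794. Sdhd had 143, 136, 149 and 158 FPKM on HFD, below all CC-IF libraries, and rose by 0.41 ± 0.09 with limma adjusted p = 0.00660. Suclg1 had 218, 190.4, 202 and 215 FPKM on HFD and rose by 0.24 ± 0.08 with limma adjusted p = 0.0366. Leaving out any 1 of HFD libraries 1 or 2, CC library 1 or CC-IF libraries 0, 1 or 3 took the Suclg1 value to between 0.0515 and 0.0976. These 3 members were also the ones whose groups did not overlap, where 27.8% of all genes were apart. The other 6 members had changes of -0.08 to 0.13, with limma adjusted p of at least 0.206. Dlst, for one, was 80.6 ± 1.90 FPKM on HFD and 88.2 ± 5.60 on CC-IF.

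Fasting on high-fat diet rests on 2 liver libraries. No member passed in limma, and 1.32% of all genes passed. Sdhb was the 1 member with an unadjusted p under 0.05 (17.8% of all genes). The 2 HFD-IF livers differed from each other for Sdha, at 292 FPKM in library 0 and 178 in library 1, against 268 to 289 FPKM on HFD. The Sdha change was -0.29 ± 0.15 (limma adjusted p = 0.339) and turned to 0.06 without library 1. Sdhb had 148 and 117 FPKM, both below the HFD range of 157 to 174 FPKM. Its change was -0.33 ± 0.12 with limma adjusted p = 0.181. It was -0.16 (limma adjusted p = 0.656) without library 1 and -0.51 (0.0283) without library 0. Ogdh had 59.8 and 62.9 FPKM, both above the HFD range of 50.7 to 57.0 FPKM, with a change of 0.16 ± 0.08 and limma adjusted p = 0.321. The Ogdh change was 0.12 without library 1 and 0.19 without library 0. These were 2 of 9 members whose groups did not overlap, where 22.2% of all genes were apart. Suclg1, at 212 and 220 FPKM, and Dlst, at 79.4 and 87.7 FPKM, overlapped the HFD livers.

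Between the fasted groups, CC-IF against HFD-IF, 0 of 9 members passed in limma (0.591% of all genes), with 3 at an unadjusted p under 0.05 (18.2% of all genes). All 9 changes were positive, from 0.08 (Dlst) to 0.46 (Sdhd, limma adjusted p = 0.0763). Without HFD-IF library 1 the Sdhd change was 0.38 (limma adjusted p = 0.315), and that of Sdha turned to -0.14. The interaction, in which the change from HFD to HFD-IF is subtracted from the change from CC to CC-IF, was positive for all 9 members, from 0.23 (Ogdh) to 0.55 (Sdhd). None passed in limma (1.11% of all genes), the smallest adjusted p was 0.0677 for Sdhc (0.238 without HFD-IF library 1), and 8 of 9 had an unadjusted p under 0.05, as did 18.3% of all genes. The difference between the fasting changes on the 2 diets was therefore not called for any member. The members' median interaction was 0.47 against 0.036 over all genes tested. All 9 complex III genes, listed below, were also positive (median 0.51), as were 6 of 6 propionate route genes (0.58). So were 3 of 3 tested partners of the 2-oxoglutarate complex (0.32), and the remaining lists were of mixed sign. For CC-IF against HFD-IF the medians were 0.22 for the members, 0.017 for all genes tested and 0.33 for complex III. The same lists were wholly positive there. Without HFD-IF library 0, which left library 1 alone in its group, 3 members were called for HFD-IF against HFD, 4 for CC-IF against HFD-IF and 6 for the interaction. Without library 1 none were called in these 3 comparisons. The remaining HFD-IF library was then taken to have the spread of the rest. Without CC-IF library 2, 2 members were called for the interaction.

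**Figure D3:**
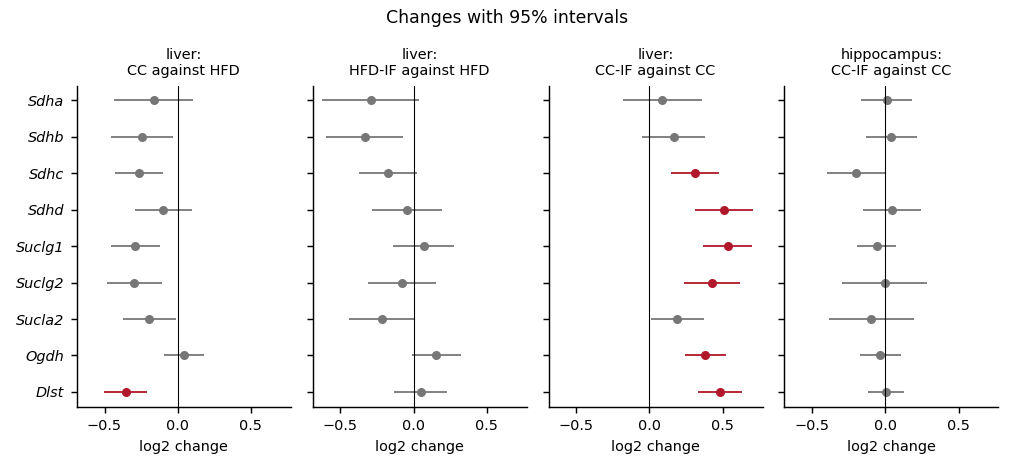
Log2 changes of log2(FPKM + 1) with 95% intervals from limma for 3 comparisons in liver and 1 in hippocampus, red where the adjusted p is under 0.05. In liver 1 member is red for CC against HFD, none for HFD-IF against HFD and 6 for CC-IF against CC, and in hippocampus none is red for CC-IF against CC.

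Some ratios of subunits differed over the liver regimens. These were Suclg2/Sucla2, of the alternative beta subunits, Dlst/Ogdh and, less stably, Sdhd/Sdha. The Suclg2 share of beta FPKM was 59.8%, 60.1%, 60.3% and 59.3% in the HFD livers and 58.3%, 58.4%, 57.3% and 58.5% in the CC livers. It was 62.4% and 62.0% in the HFD-IF livers and 62.8%, 62.5%, 61.4% and 61.5% in the CC-IF livers. Both fasted groups lay above both groups with free access, without overlap, and CC lay below HFD. Of the variance of the log2 ratio Suclg2/Sucla2, 92.7% lay between regimens, with p = 2.47e-05 in an exact permutation test over 3153150 arrangements (adjusted p = 0.000297 over 12 tests of 6 ratios in 2 tissues). The adjusted p was 0.000133 to 0.000799 over the 14 fits that left out 1 library. In size the shift was small: the ratio was 1.39 ± 0.0320 on CC (SD, n = 4) and 1.64 ± 0.0487 on CC-IF (SD, n = 4). HFD-IF library 1, where Sdha, Suclg2 and Sucla2 were all low, had a share near that of library 0.

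Dlst/Ogdh ordered the livers by diet. The ratio was 1.60, 1.37, 1.4955 and 1.41 on HFD and 1.33 and 1.39 on HFD-IF, against 1.08, 1.18, 1.14 and 1.04 on CC and 1.14, 1.28, 1.10 and 1.24 on CC-IF. Every high-fat library was above every chow library. The exact permutation test over the 4 regimens gave p = 0.000402 (adjusted p = 0.00241), with 82.4% of the variance between regimens. The lowering on chow without fasting came with lower Dlst (62.9 against 80.6 FPKM) at Ogdh of 56.7 and 55.0 FPKM. On CC-IF both Dlst and Ogdh were higher than on CC, and the ratio, 1.19 ± 0.0837, overlapped that on CC, 1.11 ± 0.0621.

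Sdhd/Sdha was 0.514, 0.510, 0.516 and 0.558 on HFD, 0.528, 0.583, 0.533 and 0.555 on CC, and 0.851, 0.718, 0.640 and 0.760 on CC-IF. CC-IF lay above both groups with free access. The HFD-IF livers had 0.511 in library 0 and 0.761 in library 1. The exact permutation test gave p = 0.0111 (adjusted p = 0.0443, 67.7% of the variance between regimens), and the adjusted p ranged from 0.00655 to 0.139 when 1 library was left out. It missed 0.05 without any 1 of 11 libraries: all 4 of HFD, all 4 of CC, and CC-IF libraries 0, 1 and 3. Sdhc/Sdha had adjusted p = 0.348, Sdhb/Sdha 0.929 and Suclg1/(Suclg2+Sucla2) 0.125 in the same exact permutation test. Without HFD-IF library 0 or library 1, both Sdhc/Sdha and Suclg1/(Suclg2+Sucla2) passed, at 0.00181 and 0.0246 respectively. Between single pairs of regimens none of 30 liver contrasts of ratios passed after adjustment. The smallest adjusted p was 0.0857, from an exact permutation p of 0.0286, which is the smallest that 4 against 4 libraries allow. With that limit a single contrast could hardly pass after adjustment over 30, so nothing is concluded from these contrasts.

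**Figure D4:**
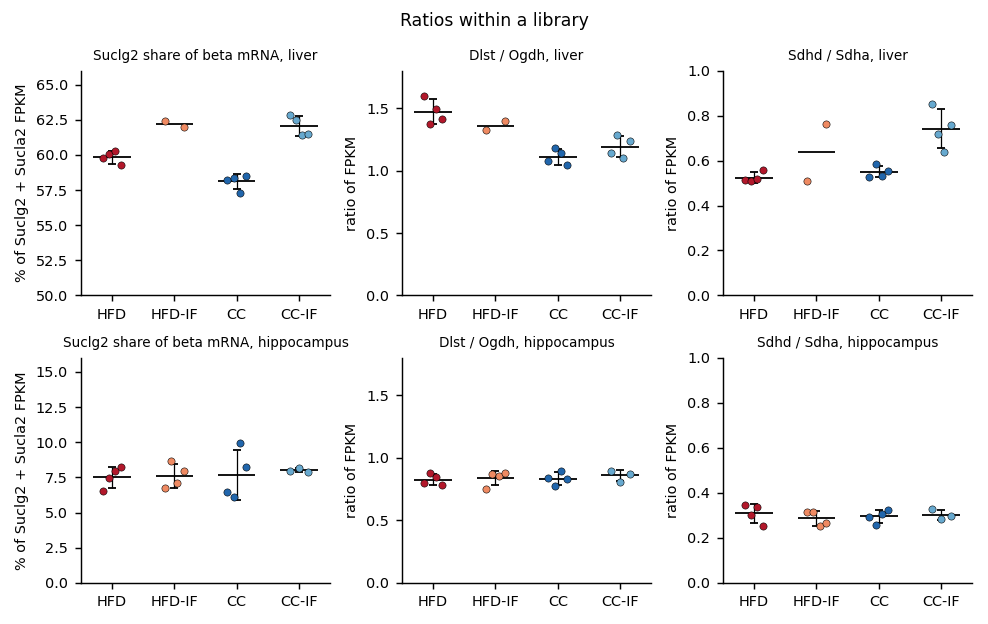
Suclg2 as a percent of summed Suclg2 and Sucla2 FPKM, and the ratios Dlst/Ogdh and Sdhd/Sdha, by regimen in liver (top) and hippocampus (bottom), with points for libraries, lines at means and bars of 1 SD. The axis of the liver share starts at 50%, and the liver shares run from 57.3% to 62.8% while the hippocampal shares run from 6.12% to 9.92% with every regimen overlapping.

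In hippocampus no member passed in any of the contrasts. In limma, 0 of 9 passed for CC-IF against CC, where 0.00778% of all hippocampal genes passed. None passed either for CC against HFD (0% of all genes), for CC-IF against HFD-IF (0%) and CC-IF against HFD (0%), or for HFD-IF against HFD (0%). The smallest adjusted p was 0.651, for Dlst in HFD-IF against HFD, the 1 member with an unadjusted p under 0.05 there (7.6% of all genes). Dlst averaged 25.6 ± 1.19 FPKM on HFD and 27.9 ± 1.43 on HFD-IF (SD, n = 4 each), a change of 0.12 ± 0.05. For CC-IF against CC the 9 changes lay between -0.20 and 0.04, and their 95% intervals lay within -0.40 and 0.29.

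Sdhc had the lowest of these changes. It had 45.3, 43.6, 48.5 and 45.6 FPKM on CC and 35.3, 42.4 and 41.9 FPKM on CC-IF, all CC-IF libraries lower, and the change of -0.20 ± 0.09 had limma adjusted p = 0.788. Suclg1 had 49.1, 50.2, 50.03 and 48.2 FPKM on CC and 46.9, 47.0 and 48.1 FPKM on CC-IF, also without overlap. These were 2 of 9 members, where 8.98% of all hippocampal genes had groups that did not overlap. Sdhb, at 48.9, 51.4 and 48.8 FPKM on CC-IF, lay above all HFD-IF libraries (36.8 to 47.4 FPKM, 4.24% of all genes apart) and all HFD libraries (44.7 to 47.7 FPKM, 9.21% apart). Its change against HFD-IF was 0.17 ± 0.08, with an unadjusted limma p of 0.0605. Suclg2 stayed between 2.14 and 3.49 FPKM in all regimens, with means of 2.80, 2.83, 2.83 and 2.83 for HFD, HFD-IF, CC and CC-IF.

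No hippocampal ratio differed between regimens after adjustment. The exact permutation tests over 15765750 arrangements gave adjusted p of 0.407 (Sdhb/Sdha) to 0.929. None of 30 single contrasts passed, but groups this small could hardly pass after adjustment, so the single contrasts decide nothing. Sdhb/Sdha reached 0.0288 without HFD library 3, which had the lowest HFD ratio, 0.413. Hippocampal libraries fell into 2 sets by their scale factor, the median ratio of a library to the others: 6 libraries at 0.931 to 0.977 and 9 at 1.026 to 1.042. Sucla2 was 28.2 to 32.8 FPKM in the 6 and 33.3 to 40.1 FPKM in the 9, without overlap, and each regimen had libraries in both sets. With a term for the sets, 0 of 9 members passed in each hippocampal contrast. Choroid plexus markers also varied within regimens, from 14.3 to 1800 FPKM in sum. They reached 1800 FPKM on HFD, 1676 on CC and 993.5 on CC-IF, against 336.6 on HFD-IF. Meningeal markers summed to 36.4 to 53.8 FPKM on HFD, above 18.4 to 31.8 on HFD-IF and 20.05 to 32.95 on CC-IF, without overlap. On CC they summed to 17.6 to 44.8 FPKM. The part of such tissue in the hippocampal results was not tested.

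The fasting change on chow was tested for a difference between tissues in the model over both. It differed for 5 of 9 members, where 13.8% of all genes passed in either direction. The change was larger in liver by 0.59 ± 0.10 for Suclg1 (limma adjusted p = 0.000144), 0.51 ± 0.12 for Sdhc (0.00492), 0.48 ± 0.09 for Dlst (0.000473), 0.47 ± 0.13 for Sdhd (0.0168) and 0.42 ± 0.09 for Ogdh (0.00190). For Suclg2 the difference was 0.43 ± 0.16 with limma adjusted p = 0.0715. The Sdhd value rose to 0.0568 without hippocampal CC-IF library 2. The change from HFD to CC differed for 1 member, Dlst, by -0.45 ± 0.08 (limma adjusted p = 0.00826, 1.39% of all genes passing). Libraries of both tissues were treated as independent, since the columns do not tie them to animals.

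Other genes around succinate were read from lists chosen together with the members. Their counts for CC-IF against CC stand beside 24% of all liver genes passing in either direction and 14.2% passing as higher. For CC-IF against CC in liver, 1 of 3 tested partners of the 2-oxoglutarate complex rose: Dhtkd1, an E1 component for 2-oxoadipate, from 12.1 to 30.9 FPKM (1.31 ± 0.16, limma adjusted p = 0.000140). Of 8 other citric acid cycle genes 4 rose and 1 fell. The NADP-linked isocitrate dehydrogenase Idh2 went from 45.4 to 83.3 FPKM, while citrate synthase Cs fell from 65.7 to 44.3 FPKM. Of 7 other enzymes of succinyl-CoA and succinate 3 rose: Abat (71.3 to 122 FPKM) and Aldh5a1 (16.7 to 26.4 FPKM), which lead from GABA to succinate, and Hibch (33.9 to 49.2 FPKM), of valine breakdown. Of 6 genes of the propionate route 1 fell, Mmab, which makes the cobalamin cofactor of methylmalonyl-CoA mutase (9.05 to 5.06 FPKM). None of 5 succinate dehydrogenase assembly factors passed.

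Complex III, which takes electrons from the ubiquinol that complex II makes, had 3 of 9 genes rise: Uqcrfs1 by 0.38 ± 0.08, Uqcr10 by 0.34 ± 0.10 and Uqcrh by 0.26 ± 0.09, with limma adjusted p of 0.00351, 0.0331 and 0.0459. Among 8 regulators of mitochondrial genes 2 rose: the orphan receptor Esrra by 1.09 ± 0.08, from 10.2 to 22.8 FPKM, and Ppara by 0.99 ± 0.21, from 62.5 to 120.4 FPKM. The list medians were 0.51 for the other enzymes of succinyl-CoA and succinate, 0.30 for the regulators and 0.29 for other citric acid cycle genes. They were 0.27 for the propionate route, 0.19 for complex III, 0.09 for the assembly factors and -0.0045 for the 2-oxoglutarate complex partners. The median of the members was 0.38. For CC against HFD, where 2.3% of all liver genes passed, 1 of 3 complex partners fell (Dhtkd1, by 0.71), 2 of 6 propionate genes (Pcca and Mut, by 0.44 and 0.40) and 1 of 7 other enzymes of succinyl-CoA and succinate (Abat, by 0.90). None of the genes in the other 4 lists passed. Medians for CC against HFD were -0.36 for the propionate route, -0.34 for the other enzymes of succinyl-CoA and succinate and -0.24 for the members. They were -0.14 for complex III, -0.12 for other citric acid cycle genes and -0.10 for the assembly factors. For the complex partners and the regulators they were -0.096 and 0.0048. In hippocampus 0 genes of these lists passed for CC-IF against CC or CC against HFD.

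The members' levels were also followed from library to library. Over the 14 liver libraries Suclg2 and Sucla2 had Pearson's r = 0.851 on the log2 scale, and 0.956 after the regimen means were removed. Sdha and Sdhb had 0.809 and 0.736 on the same measures, and Sdha and Sdhd 0.314 and 0.440. Ogdh and Dlst had 0.579, and 0.175 within regimens. The genes most like each enzyme's mean in liver were Car5a (0.958), Pipox (0.951) and Atp5a1 (0.950) for succinate dehydrogenase, Pgm2 (0.967), Cisd1 (0.964) and Aldh5a1 (0.963) for the ligase, and Fmo5 (0.959), Slc25a39 (0.952) and Asl (0.952) for the 2-oxoglutarate complex. In 15 hippocampal libraries they were Rpl19 (0.918), Psmb1 (0.899) and Rps3a1 (0.895), then Crls1 (0.959) and Mob4 (0.933), then Gosr1 (0.917), Cebpg (0.885) and Fbxo18 (0.878) in the same order of enzymes. These are descriptions over libraries that share regimen, depth and tissue makeup, and the genes named were the highest of all genes kept. The liver r values keep HFD-IF library 1, where Sdha was 178 FPKM against 292 FPKM in library 0. No r was computed without HFD-IF library 1, so how far these values rest on it was not tested.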

How the data were processed

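RNA sequencing of polyadenylated transcripts was analysed in 29 libraries. The authors deposited 1 table of FPKM with 24346 rows of genes, and counts were not used here. Per the submitters' processing notes reads were handled with TopHat2 2.1.1, Bowtie2 2.3.5.1, Trimmomatic 0.39 and FastQC 0.11.9 on GRCm38. How FPKM was computed, with which annotation and scaling, is not given in the sources used here. Per the labels' protocols the libraries were strand-specific and read as 125 nt pairs from about 20 mg of tissue. An FPKM of exactly 0 can be a failed estimate. Columns were tied to tissue and regimen by name, with 0 columns left over.

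Depth was estimated by reading low FPKM values as whole fragments: 66.2% to 79.0% of low values in liver and 60.8% to 74.4% in hippocampus lay within 0.2 of a whole number, where chance gives 40%, so the depths are approximate. Genes with a longest transcript under 300 nt held 95.4% to 99.9% of summed FPKM.

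Log2(FPKM + 1) values were fitted with limma 3.58.1 in R 4.3.3 (group means of 4 regimens per tissue, intensity trend, two-sided) on genes with a mean of at least 1 FPKM, 11497 in liver and 12857 in hippocampus. Adjusted p-values are Benjamini-Hochberg values over all genes, with a threshold of 0.05. The log2(FPKM + 1) scale understates changes of low genes such as hippocampal Suclg2. Both tissues entered 1 model on 9939 genes. Ratios of members, without a pseudocount, were compared by permutation over libraries (Python 3.11.15, numpy 2.4.6, scipy 1.17.1, pandas 2.3.3). Plots used matplotlib 3.10.9. The scripts were tested on simulated data. Over 40 pairs of libraries of a group at least 99.99% of values differed, so none was treated as a repeat.

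The members, lists, tests and rules were chosen with earlier results of these data known. All 9 members were named in every comparison, together with up to 3 genes per list with the smallest p among those past the threshold, and for each enzyme the 3 genes with the highest Pearson's r outside the members, predicted genes left out. A few genes picked by these rules are not reported here. The series design calls samples of a group biological replicates. Alternatives were another pseudocount, no filter, median-ratio scaling, no trend, single-contrast fits and leaving out each library.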

Additional observations from a re-analysis of the deposited data

Results flagged for a closer look

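Of 90 groups of 4 or more libraries tested over the members and ratios, 8 held a library far from the others for the group's range, and chance gives about 1 in 20. In hippocampus these were Sdhb in HFD library 1, the highest of 4 at 47.7 FPKM, and in HFD-IF library 2, the lowest at 36.8 FPKM. Sucla2 in HFD-IF library 2 was also lowest, at 28.4 FPKM. Sdhb/Sdha in HFD library 3 was lowest at 0.413. In liver they were Sdhc in HFD library 2, the lowest at 166.5 FPKM, and Sdhb/Sdha in CC-IF library 2, the lowest at 0.529. Sdhd/Sdha in HFD library 3 was the highest at 0.558, and Suclg1/(Suclg2+Sucla2) in HFD library 0 the highest at 1.25.

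The fasting change on chow differed between liver and hippocampus by a test of the difference for Suclg1 (0.59), Sdhc (0.51), Dlst (0.48), Sdhd (0.47) and Ogdh (0.42), each larger in liver on the log2 scale. The change from high-fat diet to chow differed for Dlst (-0.45).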

How the results depend on the processing

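No paired analysis was possible because column numbers start at 0 and label numbers at 1, so no column carries a sample number, and the replicate block was not run. Under another pseudocount, no filter on low values, median-ratio scaling and no trend, all 54 liver changes kept their direction and side of the threshold. In the fit on its own groups, CC against HFD called 2 members. Leaving out 1 library gave 0 to 3 calls for CC against HFD, 0 to 3 for HFD-IF against HFD, 0 to 4 for CC-IF against HFD-IF, 0 to 6 for the interaction, 2 to 3 for CC-IF against HFD and 1 to 2 for the tissue difference of CC against HFD. Suclg1 in CC-IF against HFD had limma adjusted p = 0.0556 in the fit on its own groups. Adjusted permutation p over libraries left out ran from 0.00655 to 0.139 for liver Sdhd/Sdha, 0.00181 to 0.533 for Sdhc/Sdha, 0.00181 to 0.226 for Suclg1/(Suclg2+Sucla2) and 0.0288 to 0.945 for hippocampal Sdhb/Sdha.

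Some liver changes that were not called turned sign with 1 library left out. For HFD-IF against HFD the changes ran from -0.651 to 0.0639 for Sdha, -0.116 to 0.0279 for Sdhd, -0.244 to 0.0906 for Suclg2 and -0.0208 to 0.1198 for Dlst, turning without HFD-IF library 1. For CC-IF against HFD-IF, Sdha ran from -0.142 to 0.572, and for CC-IF against HFD, Sucla2 ran from -0.0356 to 0.0346. In hippocampus, uncalled changes for CC-IF against CC turned to 0.0091 for Suclg2 under median-ratio scaling. With a term for the 2 sets of libraries, added after seeing the data, they turned to 0.085 for Suclg2, 0.044 for Sucla2 and 0.001 for Ogdh. With 1 library left out they ran from -0.031 to 0.047 for Sdha, -0.0066 to 0.089 for Sdhd, -0.075 to 0.068 for Suclg2 and -0.013 to 0.026 for Dlst. The Ogdh tissue difference of CC against HFD turned from -0.039 to 0.0031 under median-ratio scaling. Hippocampal directions of single members are thus not stable, while no hippocampal member was called under any alternative run. Depth is known only as an estimate, 2 libraries limit HFD-IF in liver, and Suclg2 in hippocampus is close to the filter of 1 FPKM.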
